A study of Mus musculus with 9 samples.

Results

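The genes described here mainly encode enzymes that attach glutathione, glucuronic acid or sulfate to foreign and endogenous compounds. With them are the carboxylesterases, which hydrolyse esters and amides. Members were taken by symbol, as the rows of the expression table whose GRCm38 gene symbol starts with Gsta, Gstk, Gstm, Gsto, Gstp, Gstt, Gstz, Mgst, Ugt, Sult or Ces followed by a digit. This gave 78 of the 35315 genes in the table. They were 23 cytosolic and mitochondrial glutathione S-transferase genes (Gst) and 3 microsomal glutathione S-transferase genes (Mgst). The rest were 20 UDP-glycosyltransferase genes (Ugt), 13 sulfotransferase genes (Sult) and 19 carboxylesterase genes (Ces). Most of the Ugt genes encode UDP-glucuronosyltransferases, while the enzymes of Ugt3a1, Ugt3a2 and Ugt8a use other sugars. Gstm2-ps1 and Ces2d-ps are pseudogenes. Membership rests on the symbol and not on a measured value, although the gene families were chosen with earlier results of these data known.

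RNA of the colon was sequenced from wild-type C57BL/6J mice aged 8 weeks, in 3 groups with 3 libraries each. The GsMTx4 mice drank 2.5% dextran sulfate sodium (DSS) for 7 days and were given GsMTx4 intravenously at 10 mg/kg on days 2, 4 and 6. The DSS mice drank the same DSS water and were injected with solvent on those days. The Control mice drank plain water, and the labels list no injection for them, so in a comparison with Control what DSS did and what the injections did cannot be told apart. DSS is a sulfated polymer that damages the colonic epithelium and causes colitis. GsMTx4 is a spider-venom peptide that blocks mechanically gated cation channels, Piezo1 among them. The labels do not state that each library is a different mouse, and the p-values cover only the spread seen between libraries, which may be technical.

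Conjugation makes lipophilic compounds more soluble in water and ready for export from the cell. Glutathione S-transferases join the tripeptide glutathione to electrophiles, UDP-glucuronosyltransferases of the endoplasmic reticulum use UDP-glucuronic acid, and cytosolic sulfotransferases use the activated sulfate donor PAPS. In the gut these enzymes act mainly in epithelial cells, the first cells to meet compounds from the diet and from bacteria.

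Values are FPKM, fragment counts scaled to transcript length and to the mapped fragments of the library. A gene was tested where it reached 1 FPKM in at least 3 of the 9 libraries, whatever their group, which kept 14360 genes and 45 of the 78 members. By family the tested members were 21 Gst, 3 Mgst, 5 Ugt, 5 Sult and 11 Ces genes. Fold changes are on the log2(FPKM + 1) scale with their standard errors, and adjusted p-values come from limma with the Benjamini-Hochberg method over all 14360 genes. A change was called at an adjusted p under 0.05. Each group has n = 3, and means are given ± SD.

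Depth was estimated from genes with 1 transcript, taking the most common low product of FPKM and transcript length as 1 fragment. It came to between 15100000 and 21500000 fragments per library. Between 23.0% and 29.6% of these low products fell on the steps this sets, so depths and fragment numbers are approximate. The colon epithelium was well represented in all libraries: the summed FPKM of 11 epithelial markers was 5887 to 7448 in GsMTx4, 5807 to 8277 in DSS and 5995 to 7364 in Control. Of those 11 markers, the intestinal transcription factor gene Cdx1 was the 1 called lower in DSS against Control. In GsMTx4 against DSS, 1 of the 11 was called higher and 1 lower. One library stood apart in its colon position genes. The summed FPKM of 5 distal colon Hox genes was 65.9 in DSS 3 and 171.5 to 350 in the other libraries. The groups also differed in this sum, at 192 to 350 in GsMTx4, 65.9 to 177 in DSS and 180 to 260 in Control. Every DSS library was thus below every other library. Of the 5 genes, 1 was called higher in GsMTx4 against DSS and 0 were called in DSS against Control. Among the 3 DSS libraries, DSS 3 also held the lowest value for 28 of the 45 tested members. In the other groups, GsMTx4 1 was lowest of its group for 24 members and Control 1 for 22. The summed FPKM of 5 leukocyte markers was 94.2 to 139 in GsMTx4, 173 to 235 in DSS and 109 to 125 in Control. Of 5 fibroblast markers, 3 were lower in GsMTx4 against DSS, and both tested adipocyte markers were higher in DSS against Control and lower in GsMTx4 against DSS. Of 7 pancreatic acinar markers in the table, Cela1 was the 1 tested, lower in DSS against Control (-1.36 ± 0.23) and higher in GsMTx4 against DSS (1.83 ± 0.23); the summed FPKM of the 7 was 65.0 to 126 in GsMTx4, 21.3 to 25.4 in DSS and 58.0 to 64.8 in Control. Nearly all of that sum was Cela1, and the other 6 averaged at most 0.311 FPKM in any group. Hepatocyte markers were raised in GsMTx4: 14 of the 17 tested were higher against DSS and 10 against Control, while in DSS against Control 1 was higher and 3 were lower. The summed FPKM of the 19 hepatocyte markers was 84.8 to 127 in GsMTx4, 31.6 to 73.1 in DSS and 42.9 to 59.6 in Control. In bulk tissue, fewer cells of a type and less RNA per cell cannot be told apart, and this holds for every result that follows. The part of colon position, of other cell types and of liver RNA in the members' values was not tested.

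By the sign of the fold change, 36 of the 45 tested members were lower in DSS than in Control. So were 9404 of the 14360 tested genes. In GsMTx4 against DSS, 36 members had a positive fold change, as had 8137 of all tested genes. Fewer changes were called. In DSS against Control, 17 members were called lower and 1 higher, and 27 were not called. Of all tested genes, 10.7% were called lower there and 6.41% higher. The members' median log2 fold change was -0.54, against -0.17 over all tested genes, and in 26 members the 2 groups did not overlap (57.8%, against 47.1% of all tested genes). In GsMTx4 against DSS, 16 members were called higher and 1 lower, and 28 were not called. Of all tested genes, 6.66% were called higher there and 5.62% lower. The median was 0.57 for the members and 0.07 over all tested genes, and 22 members did not overlap (48.9%, against 30.3%). These comparisons share the DSS libraries. Without DSS 3, 16 members were called lower in DSS against Control and 13 were called higher in GsMTx4 against DSS.

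Ugt1a1 and Sult2b1 were called lower in the comparison with Control and not called in the other. Sult1c2 was called higher in GsMTx4 against DSS and not called in DSS against Control. Ces1g ran the other way, higher in DSS against Control and lower in GsMTx4 against DSS. In GsMTx4 against Control no member was called by limma, where 0.188% of all tested genes were called higher and 0.0487% lower. At an unadjusted p under 0.05 that comparison had 7 members, with Gstm1, Gstm2, Gstm2-ps1, Gstm3, Ugt1a6a and Sult2b1 at negative and Sult1c2 at a positive fold change, and 1456 of all tested genes. The members' median there was -0.09, against -0.08 over all tested genes.

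Scaling changed the balance over all genes. With median-of-ratios scaling the median of all tested genes in DSS against Control moved by 0.16, and with quantile normalization by 0.11. All tested genes were then called 1418 higher and 919 lower with median-of-ratios scaling and 1335 higher and 1328 lower with quantile normalization, against 921 higher and 1541 lower as deposited. For GsMTx4 against DSS, the same scaling gave 818 higher and 1069 lower, against 956 higher and 807 lower. The members' balance stayed: 14 lower and 1 higher with median-of-ratios scaling in DSS against Control, and 14 higher and 1 lower in GsMTx4 against DSS. Gstm4, Gstp2 and Sult2b1 were the members that lost their call in DSS against Control.

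**Figure D1:**
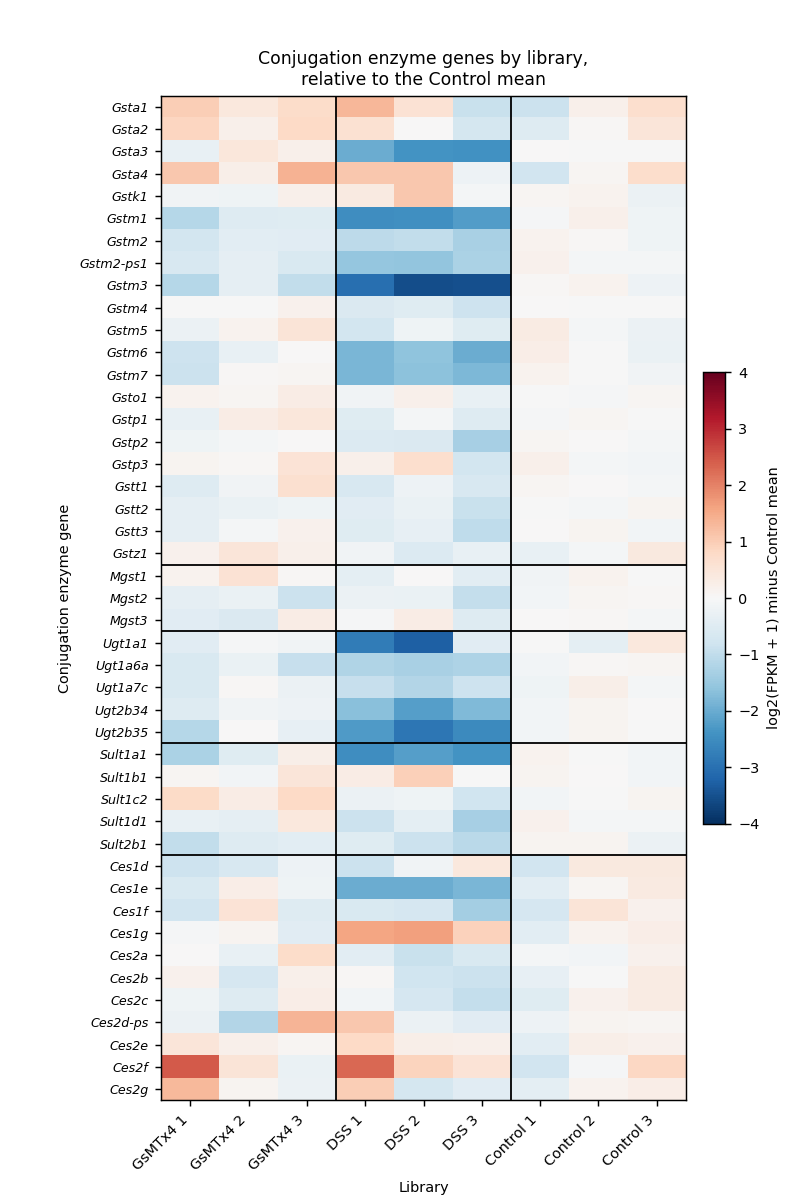
Difference of log2(FPKM + 1) from the Control mean for the 45 tested members (rows, in families separated by lines) in each library (columns, GsMTx4, DSS and Control, 3 each). Blue is lower and red is higher than the Control mean. The DSS columns are darkest blue in the Gstm rows, Gsta3, the Ugt rows and Sult1a1, and the Ces1g row is red in DSS.

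**Figure D2:**
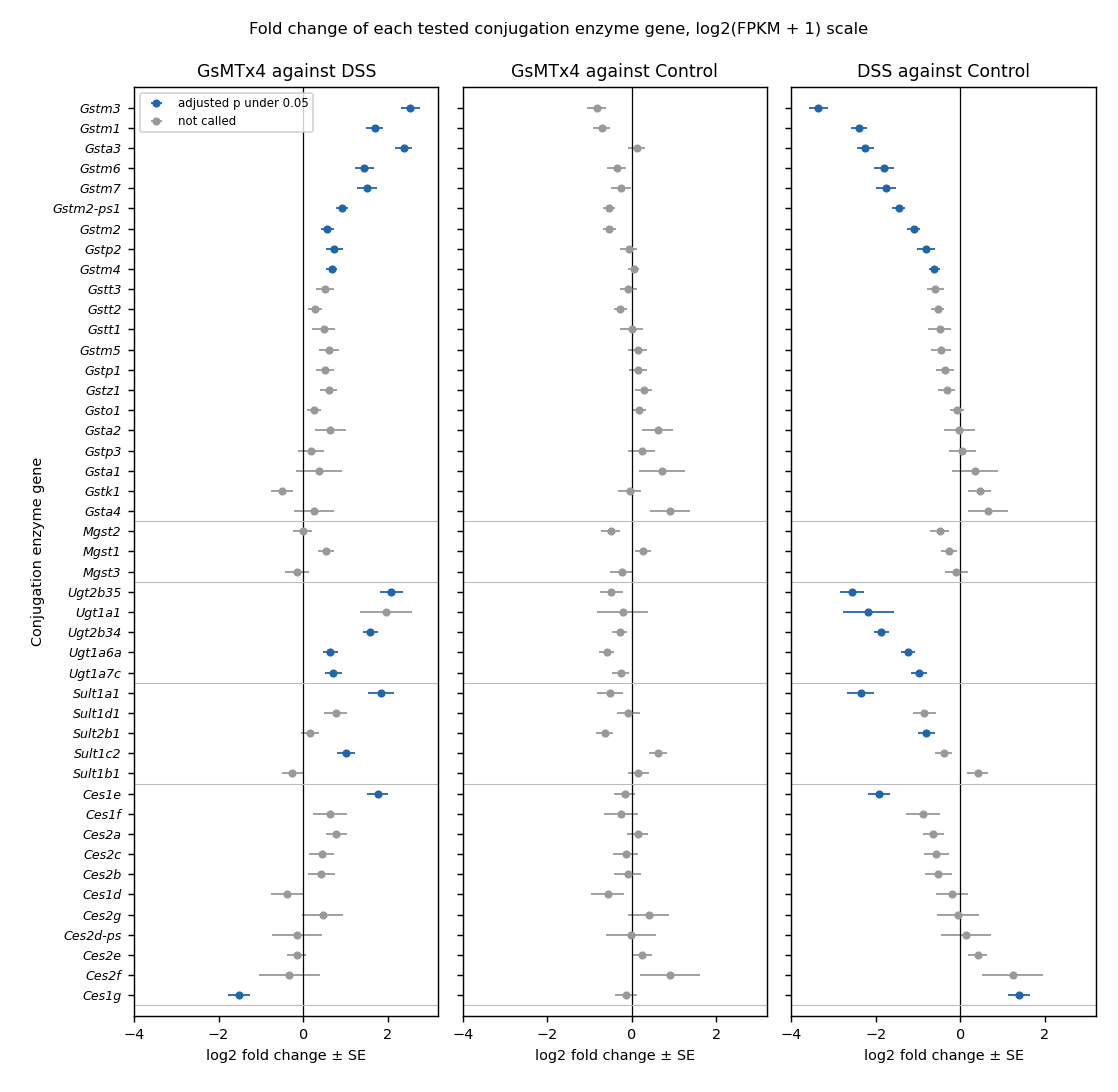
Log2 fold change (x axis, log2(FPKM + 1) scale, with standard errors) of each tested member (y axis) in GsMTx4 against DSS, GsMTx4 against Control and DSS against Control. Blue points have an adjusted p under 0.05. In DSS against Control 17 blue points lie left of 0, in GsMTx4 against DSS 16 lie right of it, and the middle panel has none.

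Stretches of promoter are shown here for members that carry the motifs of factors known to act on such genes, since many members were lower in DSS together. RefSeq promoters (GRCm38.p6, 250 bases before to 50 bases after the transcript start) were found for 38 of the 45 tested members, some of which have more than 1 promoter. The core of the antioxidant response element, TGACNNNGC, through which Nrf2 acts, was searched on both strands. It was held by 12.4% of all 32817 promoters, by 2 of the 22 promoters of members lower in DSS against Control, and by 2 of the 25 promoters of tested members not called there. The carriers were Gsta3 and Gstm7, which were lower in DSS, and Gstm5 and Mgst1, which were not called. Each sequence is written 5′ to 3′ on the strand of its gene, with the match in capitals; in Mgst1 the match is on the opposite strand. The match starts 121 bases before the start of the RefSeq transcript in Gsta3 (chr1:21240439-21240498, plus strand) and 129 in Gstm7 (chr3:107931709-107931768, minus strand). It starts 42 bases before it in Gstm5 (chr3:107895787-107895846, plus strand) and 56 in Mgst1 (chr6:138140446-138140505, plus strand). Gstm7 and Mgst1 each have another RefSeq promoter, which holds no match. Their stretches shown here lie inside the genes as annotated in GENCODE (Gstm7 107926334 to 107931817, Mgst1 138140316 to 138156755). In these genes the match is thus not upstream of the annotated gene start.
Gsta3: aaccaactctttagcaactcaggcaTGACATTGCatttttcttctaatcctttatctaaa
Gstm7: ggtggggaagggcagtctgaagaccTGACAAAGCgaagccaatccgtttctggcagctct
Gstm5: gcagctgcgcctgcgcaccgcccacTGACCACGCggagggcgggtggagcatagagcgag
Mgst1: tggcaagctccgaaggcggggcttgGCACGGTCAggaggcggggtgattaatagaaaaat

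Other motifs searched on both strands were the aryl hydrocarbon receptor core GCGTG, the HNF4A motif CAAAGTCCA and the pattern TGANTCA. The last is wider than the AP-1 consensus, which has C or G as its middle base. The first of these was in 32.4% of all promoters, 4 of the 22 and 8 of the 25. By gene this was 2 of 16 members lower in DSS and 8 of 21 not called. Gstm1 and Sult2b1 were each counted with more than 1 promoter, and the overlapping Gstm1 promoters hold the same match. The HNF4A motif was in 0.475% of all promoters, 0 of the 22 and 1 of the 25. The pattern TGANTCA was in 7.81% of all promoters, 4 of the 22 and 4 of the 25. In Ugt1a6a and Ugt2b35, both lower in DSS, the match was TGATTCA, so these shares are not those of the AP-1 consensus. A match is a description of the letters in this window and not of a bound site.

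The mu class of glutathione S-transferases had the most members called. Of its 8 tested genes, 7 were lower in DSS against Control and 7 were higher in GsMTx4 against DSS. Its summed level was 132, 189 and 193 FPKM in the GsMTx4 libraries, 67.7, 74.9 and 68.4 FPKM in the DSS libraries and 259, 269 and 219 FPKM in the Control libraries. The 3 groups did not overlap in this sum, with GsMTx4 between DSS and Control. Mu-class enzymes are cytosolic and conjugate a wide range of epoxides and other electrophiles.

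Gstm3 (chromosome 3, 107963696 to 107969283, minus strand) had the largest log2 fold change of the members in DSS against Control. Its level was 11.4, 20.1 and 12.6 FPKM in GsMTx4, 2.36, 1.32 and 1.37 FPKM in DSS and 27.3, 28.8 and 22.9 FPKM in Control. Every DSS library was below every other library, and every GsMTx4 library was below every Control library. Gstm3 had a log2 fold change of -3.36 ± 0.23 in DSS against Control (adjusted p = 0.000471), 2.53 ± 0.23 in GsMTx4 against DSS (adjusted p = 0.000894) and -0.83 ± 0.23 in GsMTx4 against Control (adjusted p = 0.28, limma).

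Gstm1 (chromosome 3, 108012255 to 108017973, minus strand), the most abundant mu-class gene in these libraries, stood at 55.9, 85.8 and 88.8 FPKM in GsMTx4, 21.2, 21.6 and 25.3 FPKM in DSS and 120, 144 and 110 FPKM in Control. Again the 3 groups did not overlap, and GsMTx4 lay between the others. Gstm1 had a log2 fold change of -2.40 ± 0.20 in DSS against Control (adjusted p = 0.000471), 1.69 ± 0.20 in GsMTx4 against DSS (adjusted p = 0.00238) and -0.71 ± 0.20 in GsMTx4 against Control (adjusted p = 0.295, limma).

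Of the 8 mu-class genes, 7 lie in 1 cluster on chromosome 3, within 149 kb, and the genes at its ends differed least between DSS and Control. In the order Gstm5, Gstm7, Gstm6, Gstm3, Gstm2, Gstm1 and Gstm4 along the chromosome, the log2 fold changes in DSS against Control were -0.47, -1.75, -1.81, -3.36, -1.10, -2.40 and -0.62. In the same order those in GsMTx4 against DSS were 0.60, 1.5, 1.45, 2.53, 0.57, 1.69 and 0.67. Gstm5, at 16.5 to 28.3 FPKM in GsMTx4, 11.3 to 17.1 FPKM in DSS and 16.4 to 24.8 FPKM in Control, was not called in either comparison (adjusted p = 0.185 and 0.119, limma). Differences between genes of the cluster were not tested. The processed pseudogene Gstm2-ps1 on chromosome 5, at 3.65 ± 0.491 FPKM in GsMTx4, 1.46 ± 0.314 FPKM in DSS and 5.76 ± 0.692 FPKM in Control, differed in the same directions as Gstm1, with which it shares 35.4% of its 50-base windows, so reads of the pair could be split between them. Of the windows of Gstm3 and Gstm1, 28.8% and 23.1% occur in other genes. Calls near the threshold were those of Gstm4 in DSS against Control, lost without Control 1, 2 or 3 (adjusted p = 0.0519 to 0.0596, limma), and Gstm2 in GsMTx4 against DSS, lost on leaving out any library but GsMTx4 1 (adjusted p = 0.0534 to 0.133, limma). Gstm4 in GsMTx4 against DSS was not called when only these groups were in the fit (adjusted p = 0.0661, limma).

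The alpha class was split. Gsta3 (chromosome 1, 21240589 to 21265661, plus strand), whose mouse enzyme inactivates the epoxide of aflatoxin B1, was the 1 called of its 4 tested genes. It stood at 5.33, 9.70 and 8.06 FPKM in GsMTx4, 0.976, 0.506 and 0.473 FPKM in DSS and 6.96, 6.71 and 6.78 FPKM in Control. All DSS libraries were below all others, while the GsMTx4 and Control libraries overlapped. Gsta3 had a log2 fold change of -2.26 ± 0.20 in DSS against Control (adjusted p = 0.000576), 2.38 ± 0.20 in GsMTx4 against DSS (adjusted p = 0.000846) and 0.12 ± 0.20 in GsMTx4 against Control (adjusted p = 0.872, limma). The other 3 alpha-class genes lie together on chromosome 9. Gsta4, which conjugates the lipid peroxidation product 4-hydroxynonenal, stood at 11.8 to 27.7 FPKM in GsMTx4, 8.41 to 22.3 FPKM in DSS and 5.42 to 16.8 FPKM in Control. Gsta1 ranged between 6.54 FPKM in DSS 3 and 34.1 FPKM in DSS 1, and its groups overlapped in all 3 comparisons. Gsta1 shares 89.7% of its 50-base windows with other genes, most of them with the predicted gene Gm3776, so its level is uncertain.

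In the pi class, Gstp2 was lower in DSS against Control, with 43.0, 46.5 and 49.4 FPKM in GsMTx4, 33.1, 32.5 and 18.8 FPKM in DSS and 51.2, 49.1 and 45.9 FPKM in Control. Its log2 fold change was -0.81 ± 0.20 (adjusted p = 0.0275), and 0.74 ± 0.20 in GsMTx4 against DSS (adjusted p = 0.047, limma). These calls were close to the threshold: without 1 Control library the adjusted p in DSS against Control was 0.0706 to 0.089, it was 0.109 with median-of-ratios scaling, and the GsMTx4 call was lost on leaving out any of 7 libraries (0.0614 to 0.128, limma). Its more abundant neighbour Gstp1, at 118 ± 30.8 FPKM in GsMTx4, 80.6 ± 14.2 FPKM in DSS and 103 ± 5.34 FPKM in Control, was not called. Gstp1 and Gstp2 share 62.3% of the 50-base windows of Gstp1, so the split between them is uncertain.

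No gene of the remaining cytosolic and mitochondrial classes was called by limma. Of the 3 theta-class genes, 2 had an unadjusted p under 0.05 in DSS against Control, as had 5014 of the 14360 tested genes. Under some alternatives theta-class genes were called lower there: all 3 with sample weights, Gstt2 and Gstt3 with values rescaled to TPM, and Gstt2 with a filter at a mean FPKM of at least 5, without GsMTx4 3 or without DSS 2. Gsto1 (chromosome 19, 47854970 to 47864790), whose enzyme reduces dehydroascorbate and removes glutathione from proteins, had the highest mean of the Gst genes. Its level was 155, 148 and 170 FPKM in GsMTx4, 126, 161 and 112 FPKM in DSS and 137, 134 and 147 FPKM in Control, with a log2 fold change of -0.08 ± 0.16 in DSS against Control (adjusted p = 0.742, limma). The 3 theta-class genes Gstt1, Gstt2 and Gstt3 had log2 fold changes of -0.49, -0.54 and -0.60 in DSS against Control, with non-overlapping groups and adjusted p = 0.222, 0.0504 and 0.0698 (limma). Gstk1, of mitochondria and peroxisomes, had 0.46 ± 0.27 and Gstz1, an enzyme of tyrosine breakdown, -0.32 ± 0.20 in the same comparison. Of the 2 untested Gst genes, Gsto2 stayed at or below 0.408 FPKM and Gstt4 at or below 0.161 FPKM.

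The 3 microsomal glutathione S-transferase genes, membrane proteins that also reduce lipid hydroperoxides or make leukotriene C4, were not called in any comparison by limma. At an unadjusted p under 0.05 there were 0 of the 3 in DSS against Control and 1, Mgst1, in GsMTx4 against DSS. Of the 14360 tested genes, 5014 and 4324 were under this level in the same comparisons. Mgst3 (chromosome 1, 167371966 to 167393841) had the highest mean of all members in each group, with 240, 218 and 404 FPKM in GsMTx4, 316, 402 and 227 FPKM in DSS and 334, 335 and 313 FPKM in Control. Its spread in GsMTx4 and DSS was wider than in Control, and all groups overlapped. Mgst1 stood at 111 ± 22.8 FPKM in GsMTx4, 76.4 ± 13.7 FPKM in DSS and 92.1 ± 9.75 FPKM in Control, a log2 fold change of 0.53 ± 0.19 in GsMTx4 against DSS (adjusted p = 0.0984, limma). Mgst2 had -0.49 ± 0.23 in DSS against Control (adjusted p = 0.16, limma), with non-overlapping groups.

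**Figure D3:**
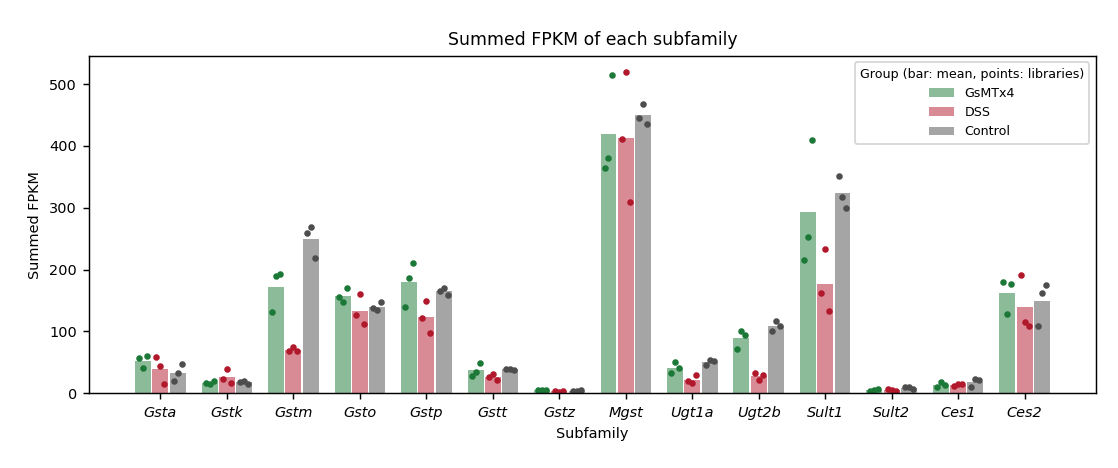
Summed FPKM (y axis) of the members of each subfamily (x axis) in GsMTx4, DSS and Control. Bars are means over 3 libraries and points are libraries. The Gstm, Ugt2b and Ugt1a sums are lowest in DSS with no overlap with Control, while the Mgst and Ces2 points overlap between groups.

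All 5 tested UDP-glucuronosyltransferase genes were lower in DSS against Control, and 4 of the 5 were higher in GsMTx4 against DSS. The summed level of the 20 Ugt genes was 105, 150 and 135 FPKM in GsMTx4, 52.0, 37.6 and 58.2 FPKM in DSS and 146, 170 and 162 FPKM in Control. Most of that sum was Ugt2b34 in every group. The 2B enzymes are known for the glucuronidation of steroids and bile acids.

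Ugt2b34 (chromosome 5, 86889767 to 86906937, minus strand) stood at 68.2, 89.8 and 86.1 FPKM in GsMTx4, 30.6, 20.8 and 28.2 FPKM in DSS and 91.4, 106 and 99.9 FPKM in Control. The 3 groups did not overlap, although the highest GsMTx4 library came within a few FPKM of the lowest Control library. The log2 fold change was -1.88 ± 0.18 in DSS against Control (adjusted p = 0.000696) and 1.59 ± 0.18 in GsMTx4 against DSS (adjusted p = 0.00201, limma). Ugt2b35 (chromosome 5, 87000860 to 87013275, plus strand) had 3.66, 9.43 and 7.30 FPKM in GsMTx4, 1.13, 0.391 and 0.770 FPKM in DSS and 8.67, 10.2 and 9.21 FPKM in Control. DSS was below both other groups in every library. Its log2 fold change was -2.57 ± 0.28 in DSS against Control (adjusted p = 0.00117) and 2.09 ± 0.28 in GsMTx4 against DSS (adjusted p = 0.0037, limma). The calls of both genes in both comparisons held without any 1 library.

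The Ugt1a genes share their last exons and differ in their first, so 38.9% to 80.2% of the windows of the 3 tested genes occur in another gene, and the split of reads among them is uncertain. Their summed level was 41.2 ± 8.80 FPKM in GsMTx4, 21.9 ± 6.59 FPKM in DSS and 50.8 ± 4.08 FPKM in Control. Ugt1a1 (chromosome 1, 88211959 to 88218997), the bilirubin-conjugating enzyme, stood at 7.47, 10.0 and 9.49 FPKM in GsMTx4, 0.646, 0.198 and 7.39 FPKM in DSS and 10.4, 7.74 and 14.3 FPKM in Control. DSS 3 was thus near the GsMTx4 and Control libraries while DSS 1 and DSS 2 were far below them. The log2 fold change was -2.18 ± 0.61 in DSS against Control (adjusted p = 0.0393, limma) and -3.04 without DSS 3, and the call was lost on leaving out any of 7 libraries (adjusted p = 0.0524 to 0.12). In the same library Ugt1a6b, which shares 80.7% of its windows with its neighbours, had its highest value, 1.18 FPKM, against at most 0.472 FPKM elsewhere.

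Ugt1a7c (chromosome 1, 88095062 to 88220002), the most abundant gene of the locus, stood at 21.8, 35.2 and 29.0 FPKM in GsMTx4, 17.4, 14.4 and 18.9 FPKM in DSS and 30.4, 40.5 and 32.1 FPKM in Control. The log2 fold change was -0.98 ± 0.20 in DSS against Control (adjusted p = 0.0116) and 0.71 ± 0.20 in GsMTx4 against DSS (adjusted p = 0.0465, limma). Ugt1a6a, which conjugates small phenols, had -1.24 ± 0.17 (adjusted p = 0.00274) and 0.64 ± 0.17 (adjusted p = 0.0411, limma). In GsMTx4 against DSS each of these calls was lost on leaving out any of 8 libraries (adjusted p = 0.0634 to 0.146 for Ugt1a7c and 0.0621 to 0.116 for Ugt1a6a, limma), and the count of Ugt genes called higher was 2 without GsMTx4 2, DSS 1, DSS 2 or any of the Control libraries. In DSS against Control, Ugt1a7c was not called without Control 2 (adjusted p = 0.0544, limma), and neither was Ugt1a1, which left 3 Ugt genes called. The 15 untested Ugt genes stayed below 1 FPKM in every library but for Ugt1a6b in DSS 3, and Ugt1a2, Ugt1a9 and Ugt3a1 were listed at 0 throughout.

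Of the 5 tested sulfotransferase genes, Sult1a1 and Sult2b1 were lower in DSS against Control, and Sult1a1 and Sult1c2 were higher in GsMTx4 against DSS. Sult1a1 (chromosome 7, 126672865 to 126676432, minus strand), the main phenol sulfotransferase, stood at 73.0, 127 and 208 FPKM in GsMTx4, 31.1, 38.3 and 32.8 FPKM in DSS and 196, 176 and 164 FPKM in Control. The DSS libraries were close to each other and below all others, and the GsMTx4 libraries spread widely, with GsMTx4 3 above every Control library. On the log2 scale Sult1a1 differed by -2.36 ± 0.32 in DSS against Control (adjusted p = 0.00245) and 1.84 ± 0.32 in GsMTx4 against DSS (adjusted p = 0.0091, limma). By mean level Sult1a1 ranked in place 3 of the members in GsMTx4, 9 in DSS and 2 in Control.

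Sult2b1 (chromosome 7, 45729983 to 45784669), which sulfates cholesterol, was low in both DSS-drinking groups, with 3.91, 5.78 and 6.25 FPKM in GsMTx4, 5.93, 4.39 and 3.62 FPKM in DSS and 9.57, 9.59 and 7.20 FPKM in Control. The GsMTx4 and DSS libraries overlapped, and both groups were below Control in every library. The log2 fold change was -0.80 ± 0.21 in DSS against Control (adjusted p = 0.0297), 0.16 ± 0.21 in GsMTx4 against DSS (adjusted p = 0.636) and -0.64 ± 0.21 in GsMTx4 against Control (adjusted p = 0.35, limma). The call was lost without DSS 2, DSS 3, Control 1 or Control 2 (adjusted p = 0.0737 to 0.107, limma), and with median-of-ratios scaling (0.0752).

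Sult1c2 (chromosome 17, 53829637 to 53846339) was highest in GsMTx4, with 15.4, 10.8 and 16 FPKM, against 7.30, 7.65 and 4.60 FPKM in DSS and 7.98, 8.6 and 9.55 FPKM in Control. Every GsMTx4 library was above every other library. On the log2 scale Sult1c2 differed by 1.01 ± 0.20 in GsMTx4 against DSS (adjusted p = 0.016), 0.62 ± 0.20 in GsMTx4 against Control (adjusted p = 0.357) and -0.39 ± 0.20 in DSS against Control (adjusted p = 0.199, limma). With only the compared groups in the fit, the call in GsMTx4 against DSS was lost (adjusted p = 0.0578, limma). Sult1b1, which acts on thyroid hormones and phenols, was abundant and not called, at 80.9 ± 17.9 FPKM in GsMTx4, 99.6 ± 35.3 FPKM in DSS and 71.9 ± 5.27 FPKM in Control, a log2 fold change of 0.41 ± 0.25 in DSS against Control (adjusted p = 0.268, limma). Its neighbour Sult1d1, which in mouse acts on catecholamines, had -0.85 ± 0.27 in the same comparison with non-overlapping groups (adjusted p = 0.0578, limma). The 8 untested Sult genes stayed below 1 FPKM, and Sult1e1 and Sult2a3 were listed at 0 throughout. Without DSS 3, Control 1 or Control 2 the count of Sult genes called lower in DSS against Control was 1.

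**Figure D4:**
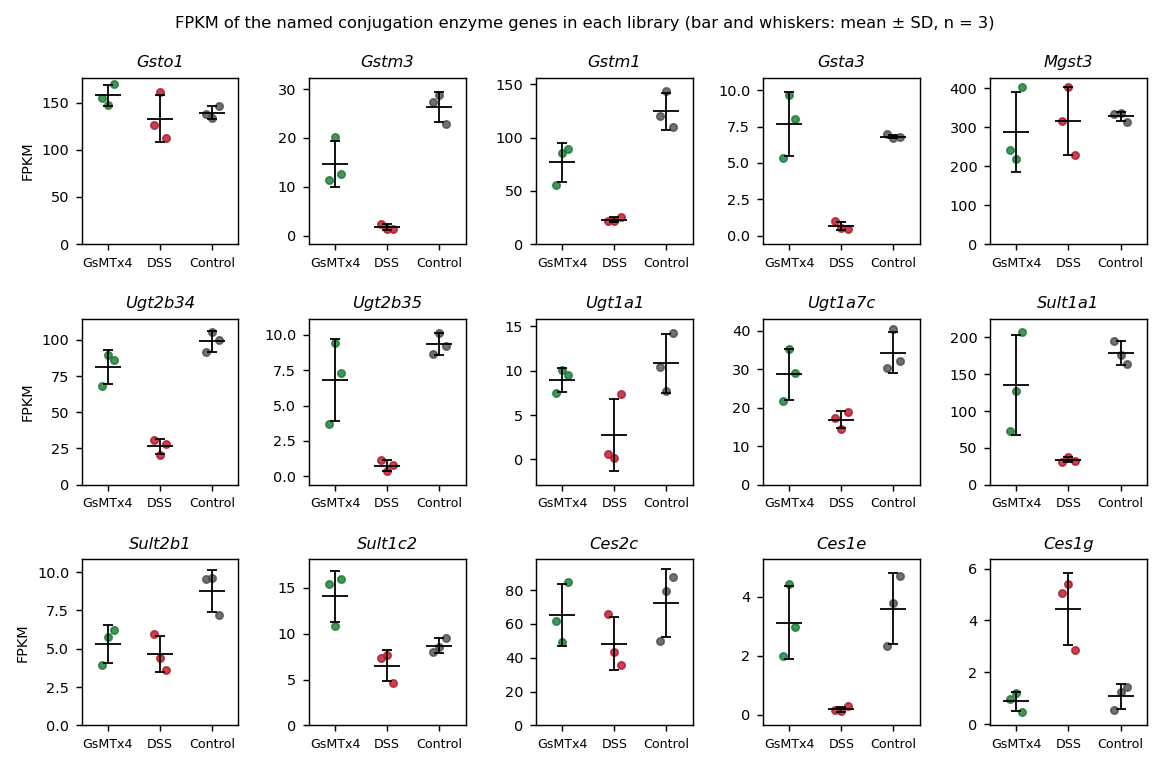
FPKM (y axis) in each library of GsMTx4, DSS and Control (x axis) for 15 members; points are libraries, and bars with whiskers are means ± SD, n = 3. Gstm3, Gstm1, Gsta3, Ugt2b34, Ugt2b35, Sult1a1 and Ces1e are lowest in all DSS libraries, Ces1g is highest there, and Ugt1a1 has 1 DSS library at the level of Control.

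The carboxylesterases did not move as a family. Of 11 tested genes, Ces1e was lower and Ces1g was higher in DSS against Control, and in GsMTx4 against DSS the same genes were called in the opposite directions. The summed level of the 19 Ces genes was 190, 146 and 191 FPKM in GsMTx4, 202, 130 and 123 FPKM in DSS and 118, 184 and 198 FPKM in Control. Without GsMTx4 3, Ces2a was also called lower in DSS against Control, which made 2 Ces genes lower.

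Ces1e and Ces1g lie in 1 cluster on chromosome 8. Ces1e (93201218 to 93229619, minus strand) encodes egasyn, which holds beta-glucuronidase in the endoplasmic reticulum of mouse liver. It stood at 1.97, 4.42 and 2.96 FPKM in GsMTx4, 0.143, 0.128 and 0.275 FPKM in DSS and 2.33, 3.78 and 4.71 FPKM in Control. The DSS values were all below 1 FPKM, and the GsMTx4 and Control libraries overlapped. Its log2 fold change was -1.93 ± 0.25 in DSS against Control (adjusted p = 0.00227) and 1.76 ± 0.25 in GsMTx4 against DSS (adjusted p = 0.00504, limma).

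Ces1g (93302369 to 93337308, minus strand), an esterase of lipid metabolism in mouse liver, had 0.958, 1.21 and 0.487 FPKM in GsMTx4, 5.05, 5.42 and 2.88 FPKM in DSS and 0.534, 1.26 and 1.44 FPKM in Control. Every DSS library was above every other library, with DSS 3 the lowest of the 3. On the log2 scale Ces1g differed by 1.38 ± 0.26 in DSS against Control (adjusted p = 0.00898) and -1.52 ± 0.26 in GsMTx4 against DSS (adjusted p = 0.00902, limma). Both calls held without any 1 library. Between Ces1e and Ces1g lies Ces1f, at 1.91, 6.18 and 2.50 FPKM in GsMTx4, 2.24, 2.13 and 0.914 FPKM in DSS and 2.09, 6.10 and 4.53 FPKM in Control, which was not called.

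The Ces2 genes, another cluster on chromosome 8, were not called with all libraries in the fit. Ces2c (104847068 to 104854483, plus strand), which hydrolyses acylglycerols in mouse, had the highest mean of the family, with 61.8, 49.1 and 84.9 FPKM in GsMTx4, 65.7, 43.7 and 35.8 FPKM in DSS and 49.8, 79.6 and 87.6 FPKM in Control. The groups overlapped (-0.58 ± 0.30 in DSS against Control, adjusted p = 0.198, limma), and 42.2% of its windows occur in other genes, mostly the pseudogene Ces2d-ps. Ces2f had its high values in 1 library of each DSS-drinking group, at 15.4, 3.28 and 1.45 FPKM in GsMTx4, 13.5, 4.45 and 3.28 FPKM in DSS and 0.741, 1.87 and 4.21 FPKM in Control. Its neighbour Ces2g had its high values in the same libraries, at 19.3 FPKM in GsMTx4 1 and 15.3 FPKM in DSS 1, against 4.07 to 8.80 FPKM in the other 7 libraries. Ces2a, lower in every DSS library than in any other, stood at 14.4 to 30.5 FPKM in GsMTx4, 9.22 to 13.3 FPKM in DSS and 16.5 to 20.6 FPKM in Control, and was not called (adjusted p = 0.0733 for GsMTx4 against DSS and 0.107 for DSS against Control, limma).

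Some members below the level for testing differed between groups in every library. Ces1c, which in mouse is secreted into plasma, was at 0.821, 1.18 and 0.736 FPKM in GsMTx4, at 0.0195, 0.0386 and 0.0499 FPKM in DSS and at 0.0435, 0.103 and 0.129 FPKM in Control. By the estimated depth this was about 20 to 33 fragments per GsMTx4 library and at most 5 elsewhere. Ces3a was at 0.339, 0.582 and 0.302 FPKM in GsMTx4, at 0.0352 FPKM in DSS 2 and at 0 in the other DSS and all Control libraries. Sult2a8 was at 0.0797, 0.0798 and 0.0805 FPKM in GsMTx4, near 3 fragments each, and at 0 elsewhere. These were 3 of the 28 untested members with any value above 0 (10.7%), where 1.11% of the 18773 untested genes with any value above 0 had all GsMTx4 libraries above all others.

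Hepatocyte markers were also high in GsMTx4. Alb, the albumin gene, was at 14.1 ± 0.758 FPKM in GsMTx4, 0.221 ± 0.225 FPKM in DSS and 0.933 ± 0.252 FPKM in Control, and Fga, Fgb, Fgg, Serpina1a and Serpina3k were at 0 in all Control libraries. Ces1c, Ces3a and Sult2a8 were named because every GsMTx4 library was above every other library. That they were high in the same libraries as the hepatocyte markers follows from this choice, and a link between them was not tested. Ces1b, the neighbour of Ces1c, was at 0.0593, 0.762 and 0.541 FPKM in GsMTx4, at 0 in all DSS libraries and at 0.369, 0.793 and 0.956 FPKM in Control.

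**Figure D5:**
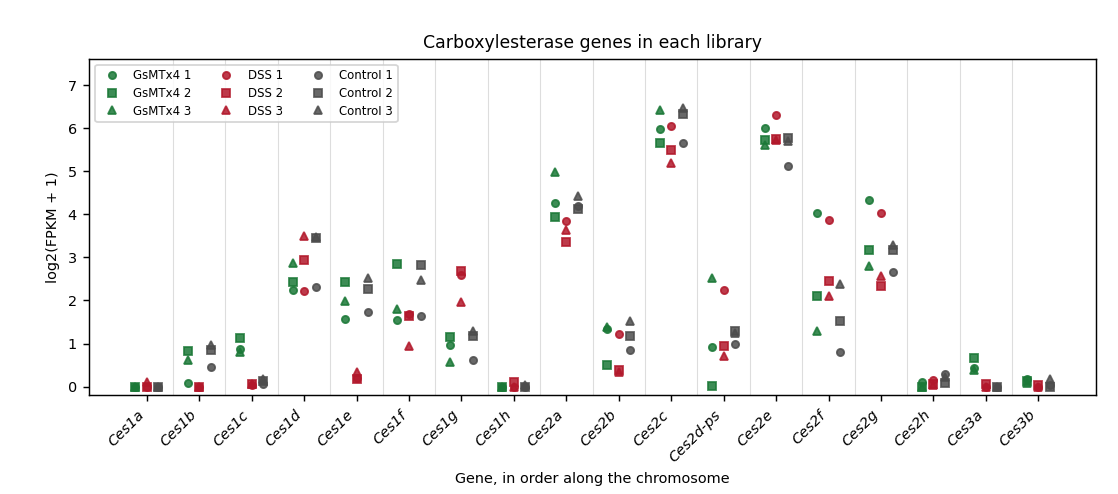
Level on the log2(FPKM + 1) scale (y axis) of the Ces1, Ces2 and Ces3 genes (x axis, in chromosomal order) in each library; colours are groups and marker shapes are library numbers. Ces1e is lowest and Ces1g highest in DSS, Ces1c is raised in GsMTx4, and Ces2f and Ces2g are high in GsMTx4 1 and DSS 1.

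Genes around the conjugation enzymes were counted in lists. Of all tested genes, 10.7% were called lower and 6.41% higher in DSS against Control. In GsMTx4 against DSS, 6.66% were called higher and 5.62% lower. Of 8 genes that supply the activated donors, 4 were lower in DSS against Control and 3 higher in GsMTx4 against DSS, with none called in the opposite directions; the list's medians were -0.33 and 0.34. Ugdh, which makes UDP-glucuronic acid, was at 24.3 FPKM in GsMTx4, 9.68 FPKM in DSS and 34.5 FPKM in Control, with log2 fold changes of -1.73 ± 0.17 in DSS against Control (adjusted p = 0.000837) and 1.23 ± 0.17 in GsMTx4 against DSS (adjusted p = 0.00463, limma). Papss1, which makes the sulfate donor PAPS, was at 50.6 FPKM in GsMTx4, 18.8 FPKM in DSS and 44.0 FPKM in Control, with -1.18 ± 0.17 (adjusted p = 0.00318) and 1.36 ± 0.17 (adjusted p = 0.00291, limma). Bpnt1, which removes the spent sulfate donor, had -0.69 ± 0.17 and 0.77 ± 0.17, and the PAPS transporter gene Slc35b2 had -0.51 ± 0.15 and, not called, 0.52 ± 0.15.

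Of 14 tested genes of glutathione synthesis and recycling, 3 were higher and 1 lower in DSS against Control, and 1 was higher and 3 lower in GsMTx4 against DSS. The peroxidase genes Gpx1 and Gpx3, whose enzymes use glutathione, and the gamma-glutamyltransferase gene Ggt5, of a family that breaks it down, were higher in DSS against Control, by 0.73 ± 0.19, 1.24 ± 0.32 and 0.79 ± 0.21, and Ggt6 was lower, at -1.07 ± 0.21. In GsMTx4 against DSS the same 3 had -0.71 ± 0.19, -1.45 ± 0.32 and -1.09 ± 0.21, and the glutathione synthetase gene Gss was higher, by 0.59 ± 0.15. None of 7 tested deconjugation genes was called by limma in any comparison, and at an unadjusted p under 0.05 there was 1 in each comparison. Of the 14360 tested genes, 5014 were under this level in DSS against Control. In GsMTx4 against DSS there were 4324, and in GsMTx4 against Control 1456. Of 9 tested export genes, the bile acid transporter subunit gene Slc51b was higher in DSS against Control (1.44 ± 0.40) and lower in GsMTx4 against DSS (-1.41 ± 0.40), and the efflux pump gene Abcb1a was lower in DSS against Control (-1.25 ± 0.19).

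Of 16 tested regulator genes, 4 were lower and 1 higher in DSS against Control, and 2 were higher in GsMTx4 against DSS. Among the lower ones were the epithelial transcription factor gene Hnf4a (-0.62 ± 0.18) and the fatty acid sensor gene Ppara (-0.91 ± 0.16), and the higher one was the bile acid receptor gene Nr1h4 (0.95 ± 0.21). Ppara was higher in GsMTx4 against DSS, by 0.71 ± 0.16. The transcripts of Nfe2l2, which encodes Nrf2, of Ahr and of the pregnane X receptor gene Nr1i2 were not called in DSS against Control, at -0.24 ± 0.13, -0.19 ± 0.16 and -0.35 ± 0.14 (adjusted p = 0.222, 0.421 and 0.12, limma).

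Of 20 other tested enzymes of conjugation and hydrolysis, 7 were lower and 4 higher in DSS against Control, and 6 were higher and 3 lower in GsMTx4 against DSS. The microsomal esterase gene Aadac had the smallest p of the list in DSS against Control, with -2.39 ± 0.31 (adjusted p = 0.00227) and 1.57 ± 0.31 in GsMTx4 against DSS (adjusted p = 0.0156, limma). The sulfurtransferase gene Tst had -1.43 ± 0.21 (adjusted p = 0.00318) and 1.28 ± 0.21 (adjusted p = 0.0072, limma). No gene of these 6 lists was called by limma in GsMTx4 against Control. There 11 of their 74 tested genes had an unadjusted p under 0.05, as had 1456 of all 14360 tested genes.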

How the data were processed

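Total RNA of mouse colon was sequenced on Illumina libraries, per the labels' protocols, in 9 libraries of 3 groups taken from the sample titles. The authors deposited 1 table of FPKM values, 1 column per library. The submitters' processing notes name cutadapt, FastQC and the build GRCm38; which program aligned reads or computed FPKM is not given in the sources used here. How reads were split among related genes is not stated, so members with shared sequence are uncertain.

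Symbols and positions came from GENCODE M21. limma 3.58.1 (R 4.3.3) fitted log2(FPKM + 1) in all 9 libraries, 1 mean for each group and 6 residual degrees of freedom left, with a trended empirical Bayes step; tests were two-sided. The log scale understates changes of low genes. No count test was run, because whole fragments were not recovered for most genes. Sequence sharing is the share of a gene's 50-base windows found in transcripts of other genes. Members and lists were chosen with earlier results of these data known. Values by library are given for the member of each family with the highest mean, for up to 3 called members with the largest change per comparison, and for members whose sharing or spread bears on a result, the last chosen after looking at their values. Simulated data with known changes were used to test the fit. Alternatives were pseudocounts of 0.1 and 0.01, no filter, a mean FPKM of at least 5, TPM rescaling, median-of-ratios and quantile scaling, compared groups only, sample weights, no trend, a replicate block and each library left out. Python 3.11.15, pandas 2.3.3 and matplotlib 3.10.9 were used. Some regulator genes and 1 of the motifs searched are not reported here.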

Additional observations from a re-analysis of the deposited data

How the results depend on the processing

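The counts of members called changed by over 1.5 times under 3 alternatives. With a filter at a mean FPKM of at least 5, 0 members were higher in DSS against Control and 0 lower in GsMTx4 against DSS, because Ces1g was no longer tested. With only the compared groups in the fit, 10 members were higher in GsMTx4 against DSS. With no filter on low values, 2 members, Ces1c and Sult2a8, were higher in GsMTx4 against Control. Under the other alternatives with all libraries, 14 to 21 members were lower in DSS against Control, and 12 to 16 higher in GsMTx4 against DSS. When 1 library was left out, these counts ran from 12 to 20 and from 12 to 15. Single members did not change direction in any of 355 and 335 alternative values of called members; 30 and 54 of these lost the call, in DSS against Control and in GsMTx4 against DSS, while 13 of 18 and 11 of 17 called members never did.

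The labels do not say that a replicate number pairs libraries, and deviations of same-numbered libraries correlated at -0.233 to 0.0998. With the replicate number as a block, 16 members were lower in DSS against Control, without Sult2b1 (adjusted p = 0.0623, limma), and 12 higher in GsMTx4 against DSS, without Gstm2, Gstp2, Ugt1a6a and Ugt1a7c. By the estimated depth the untested members rest on at most 46.5 fragments in a library. Groups of 3 libraries are too small for the check of single outlying libraries.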
